A study of Danio rerio with 18 samples.

Results

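GATA factors are zinc finger transcription factors named after the short DNA word they bind. The genes examined here were those whose symbol in the deposited count table equalled gata1a, gata2a, gata2b, gata3, gata5 or gata6, which gave 6 genes among 32520. Of these, 5 had rows in the 4 tables of comparisons (17135 genes), while gata1a was matched in the count table alone and its change was not analysed here. RNA was taken from whole wild type zebrafish (Danio rerio) embryos at the 256-cell or the 1024-cell stage of zygotic genome activation, the period when the embryo's own genome is first transcribed. All embryos received the modified nucleotide s4UTP, which marks RNA made after the injection. The 3 conditions were s4UTP alone (untreated), s4UTP together with cdk9 mRNA, and s4UTP together with MiR430 microRNA. The cdk9 mRNA overexpresses CDK9, the kinase that releases paused RNA polymerase II. Each condition and stage had 3 biological replicates (18 libraries in 6 groups).

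Marked RNA was pulled down by a biotin tag, and a chemical step made its marked bases read as mutations (enriched SLAM-seq). The labels name no group injected with a control mRNA or a control microRNA, so the effect of injected RNA as such and that of CDK9 or MiR430 cannot be told apart. Every embryo carried the same genotype, and the injected RNA was not limited to a cell type. In RNA from whole embryos, fewer cells that express a gene and less RNA per cell cannot be told apart either.

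In vertebrates, GATA1, GATA2 and GATA3 act mainly in blood and ectoderm, and GATA4, GATA5 and GATA6 in endoderm and heart. In zebrafish, gata2a and gata3 are among the genes switched on early on the ventral side of the embryo, where Bmp signalling sets aside non-neural ectoderm and blood. The gene gata1a directs red blood cell formation, gata2b acts in the vessel wall cells that give rise to blood stem cells, and gata5 and gata6 act downstream of Nodal signals in the formation of endoderm and heart.

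The members lie on 5 chromosomes of GRCz11 and have 5 to 8 merged exons each. The gene gata3 (ENSDARG00000016526) lies on the minus strand of chromosome 4, from 25054510 to 25064510, with 3047 bases of exon in 5 merged exons. The gene gata2a (ENSDARG00000059327) lies on the minus strand of chromosome 11, from 3847442 to 3865472, with 3208 bases in 7 merged exons. Its paralogue gata2b (ENSDARG00000009094) lies on the plus strand of chromosome 6, from 40794015 to 40803800, with 1955 bases in 6 merged exons. The gene gata1a (ENSDARG00000013477) shares chromosome 11 with gata2a, on the minus strand from 25411914 to 25418856, with 2096 bases in 6 merged exons. The endodermal members are gata5 (ENSDARG00000017821, plus strand of chromosome 23, 7379728 to 7391028, 2310 bases in 7 merged exons) and gata6 (ENSDARG00000103589, plus strand of chromosome 2, 4207209 to 4217887, 2579 bases in 8 merged exons).

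**Figure D1:**
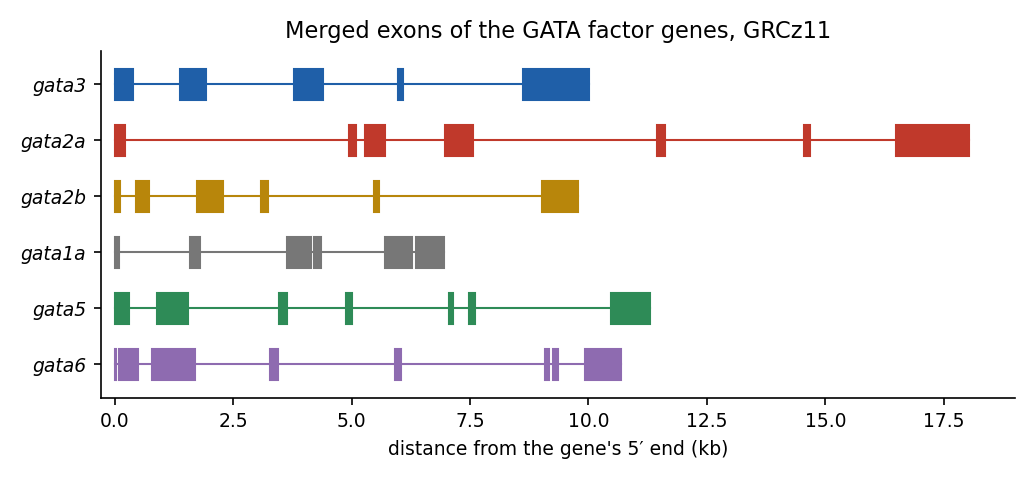
Merged exons (boxes) and introns (lines) of the 6 GATA factor genes, drawn to scale, with distance from each gene's 5′ end in kb on the horizontal axis. The spans run from 6943 bases for gata1a to 18031 for gata2a, and the last merged exon is the longest in each gene except gata6.

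The genes separated into an abundant pair and a group near the limit of measurement. The level used here is the authors' mean normalized count, an average over all 18 libraries in the authors' deposited table, since the names of the 18 count columns fit no label of a sample and their values were not used. It therefore has no spread over samples and does not show in which group a gene was high. Per kb of exon, gata3 had the highest level at 131 normalized counts and gata2a followed at 48.9. Far below were gata5 at 1.48, gata6 at 0.977 and gata2b at 0.82 normalized counts per kb. The level of gata3 was 2.68 times that of gata2a, and the level of gata2a was 33.0 times that of gata5. Whether neighbours in this order differ beyond their spread could not be tested, and for gata5, gata6 and gata2b the ratios were small (1.51 for gata5 over gata6, 1.19 for gata6 over gata2b).

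The median over all 17135 genes was 4.46 normalized counts per kb. The level per kb of gata3 was above that of 98.6% of genes and that of gata2a above 96.2%, while gata5, gata6 and gata2b were above 27.4%, 20.8% and 18.5%. In normalized counts without division by length, gata3 had a mean of 399 per library and gata2a of 157. The same means were 3.42 for gata5, 2.52 for gata6 and 1.60 for gata2b. Together, gata3 and gata2a held 70.8% and 27.8% of the summed mean of the 5 genes. Summed over the 18 libraries, these means amount to about 62 normalized counts for gata5, 45 for gata6 and 29 for gata2b, against 7181 for gata3 and 2822 for gata2a. Even if all counts of gata5 had lain in 1 of the 6 groups, that group would hold 20.5 normalized counts per library.

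**Figure D2:**
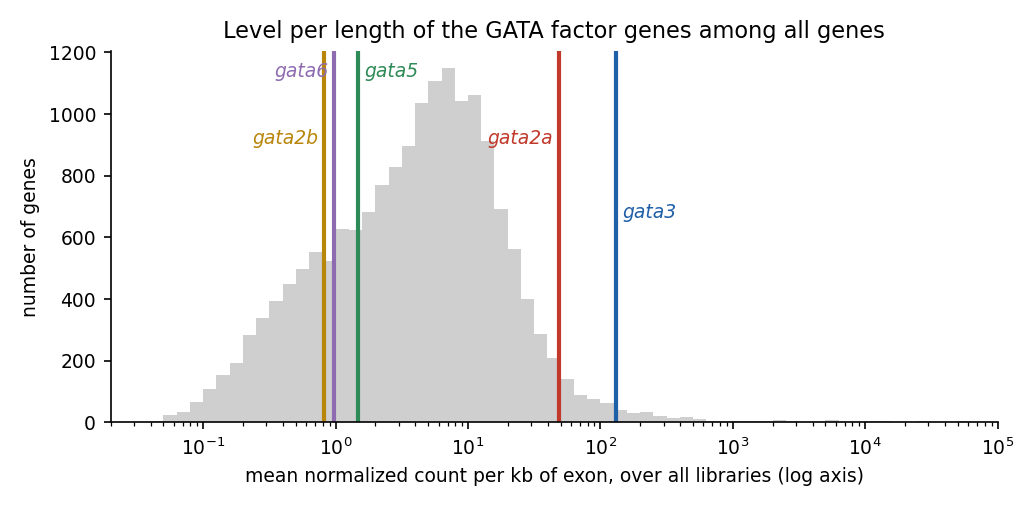
Mean normalized count per kb of exon over all libraries (log axis) for all genes (grey histogram, number of genes) with the 5 measured GATA factor genes as vertical lines. The lines of gata3 (131) and gata2a (48.9) stand in the upper tail, and those of gata5 (1.48), gata6 (0.977) and gata2b (0.82) left of the peak.

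Depth was uneven across genes. Of the mean normalized counts summed over genes, 96.8% fell on mitochondrially encoded genes, and 13.95% of genes reached a mean of 50. The gene cdk9 itself (mean 1202) had a log2 fold change under CDK9 of 6.79 (SE 0.41) at the earlier and 5.88 (SE 0.39) at the later stage, per the authors' deposited table. Reads of the injected mRNA and of the embryo's own gene were not separated. All 10 listed maternal and germ plasm transcripts were measured, with a median mean of 31.1, and 8 had an adjusted p at the earlier and 9 at the later stage. Of these, 0 were called under CDK9 at the earlier stage in the authors' DESeq2 table (1 at an unadjusted p under 0.05). At the 1024-cell stage 1 was called, tdrd7a, which fell (4 of the 10 had an unadjusted p under 0.05). With recentred statistics 2 fell at that stage. Over all genes with an adjusted p, 5.04% rose and 0.373% fell at the earlier stage, and 5.89% and 0.461% at the later one. With so few listed genes, these counts are no result about maternal transcripts.

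The first comparison asked how CDK9 overexpression changed the RNA measured for the GATA genes at the 256-cell stage. Since maternal transcripts were measured as well, the counts are not taken as new RNA alone. Both abundant members rose. In the authors' deposited table, gata2a was higher by a log2 fold change of 7.94, with an SE of 1.99 and an adjusted p of 0.000177. The log2 fold change of gata3 there was 6.58, with an SE of 1.60 and an adjusted p of 0.000219. These are 2 of the 6 members, and both of those with an adjusted p, where 5.04% of all genes with one rose. Only genes above a certain mean over all 18 libraries, the CDK9 ones included, have an adjusted p. A rise thus helps a gene to have one, and this share is no test of the members. Linear folds are 246 and 95.9, with wide errors, since the interval of 1.96 SE around the log2 value runs from 4.04 to 11.85 for gata2a and from 3.44 to 9.73 for gata3. The 2 intervals overlap over most of their length. A difference between the genes was not tested. Both were measured in the same libraries, and the deposited values do not show how their errors vary together.

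The rises put a ceiling on the starting level in untreated embryos. If the deposited folds are taken at face value, the untreated embryos at the 256-cell stage could hold at most 3.80 normalized counts of gata2a per library, or 11.4 over the 3 libraries, because all 18 libraries together held 2822. For gata3 the same ceiling is 24.7 per library, or 74.1 over the 3 libraries. At the lower end of the intervals the ceilings are 54.0 for gata2a and 202 for gata3. These are bounds from arithmetic on the authors' values, not measured levels.

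Among the 9124 genes with an adjusted p in this comparison, 460 rose, which is 5.04%, and 34 fell (0.373%). By log2 fold change gata2a ranked 31 and gata3 ranked 81 among the 460 rises, whose median was 3.61. Ordered by p, they ranked 82 and 86. Rises were 93.1% of all calls. With statistics recentred on their median, 302 genes rose, or 82.3% of calls. Both GATA genes kept their call under that setting, with adjusted p of 0.000823 for gata2a and 0.00100 for gata3.

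The remaining measured members had no adjusted p at this stage, since the smallest mean among genes with one was 8.45. Their deposited values lay close to 0. The log2 fold change of gata5 was 0.078 (SE 0.76, unadjusted p = 0.645) in the authors' deposited table. For gata6 it was -0.21 (SE 0.93, unadjusted p = 0.264), and for gata2b 0 (SE 0.87, unadjusted p = 1) in the same deposited table. Their intervals reach 1.57, 1.61 and 1.71 on the log2 scale at the upper end, and a change was not detectable at this depth. The deposited values and SE are taken as shrunken (pulled toward 0), so these upper ends are no firm bounds on a change. Over the 5 measured members the median log2 fold change was 0.078, against 0 over all genes in the table.

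**Figure D3:**
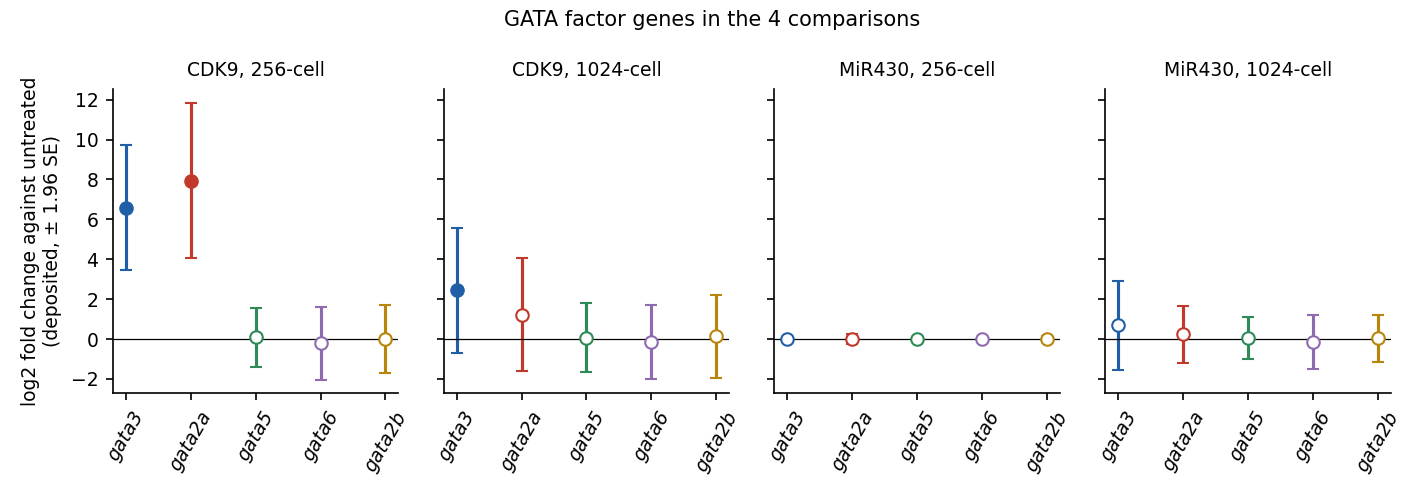
Deposited log2 fold change against untreated embryos of the same stage for the 5 measured GATA factor genes in the 4 comparisons, with bars of 1.96 SE. Filled points have an adjusted p under 0.05: gata3 and gata2a under CDK9 at the 256-cell stage (6.58 and 7.94) and gata3 under CDK9 at the 1024-cell stage (2.45), and all other points are open.

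The same question was then put to the 1024-cell stage. The gene gata3 rose, with a log2 fold change of 2.45 (a fold of 5.47) and an SE of 1.60 in the authors' deposited table. Its adjusted p there was 0.0422, so it passed the threshold narrowly. It was 1 of the 6 members, and 1 of the 2 with an adjusted p, where 5.89% of all genes with one rose. As at the earlier stage, that share is no test of the members. For gata3 the interval of 1.96 SE runs from -0.68 to 5.58 and includes 0. The call was lost without the authors' filter on low counts (adjusted p = 0.0611) and with recentred statistics (adjusted p = 0.0713), and with genes of a mean of at least 50 alone the adjusted p was 0.0179. The authors' own call asks for an absolute log2 fold change above 2 with an adjusted p under 0.01. That rule marked 2.65% of genes up here and did not mark gata3. At the 256-cell stage it marked 2.48% up, with both gata2a and gata3 among them.

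For gata2a the authors' deposited table gave a log2 fold change of 1.22 (SE 1.45) at the later stage, a fold of 2.33, with an unadjusted p of 0.0255 and an adjusted p of 0.188. Its interval runs from -1.61 to 4.06. Of 11724 genes with an adjusted p, 690 rose (5.89%) and 54 fell (0.461%). Among the 690 rises gata3 ranked 438 by log2 fold change and 650 by p, so its rise was among the less certain ones. At an unadjusted p under 0.05, 9.83% of the 16996 genes with a p were higher, as gata2a and gata3 were.

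The low members again had no adjusted p, as the smallest mean with one was 3.64 and gata5 lay just below it. In the authors' deposited table gata5 had a log2 fold change of 0.071 (SE 0.88, unadjusted p = 0.788). The values for gata6 and gata2b in that deposited table were -0.15 (SE 0.95, unadjusted p = 0.582) and 0.13 (SE 1.06, unadjusted p = 0.562). The median over the 5 measured members was 0.13, against 0.0505 over all genes. The gene gata6 had a log2 fold change below 0 at both stages, with no adjusted p at either and intervals that include 0.

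**Figure D4:**
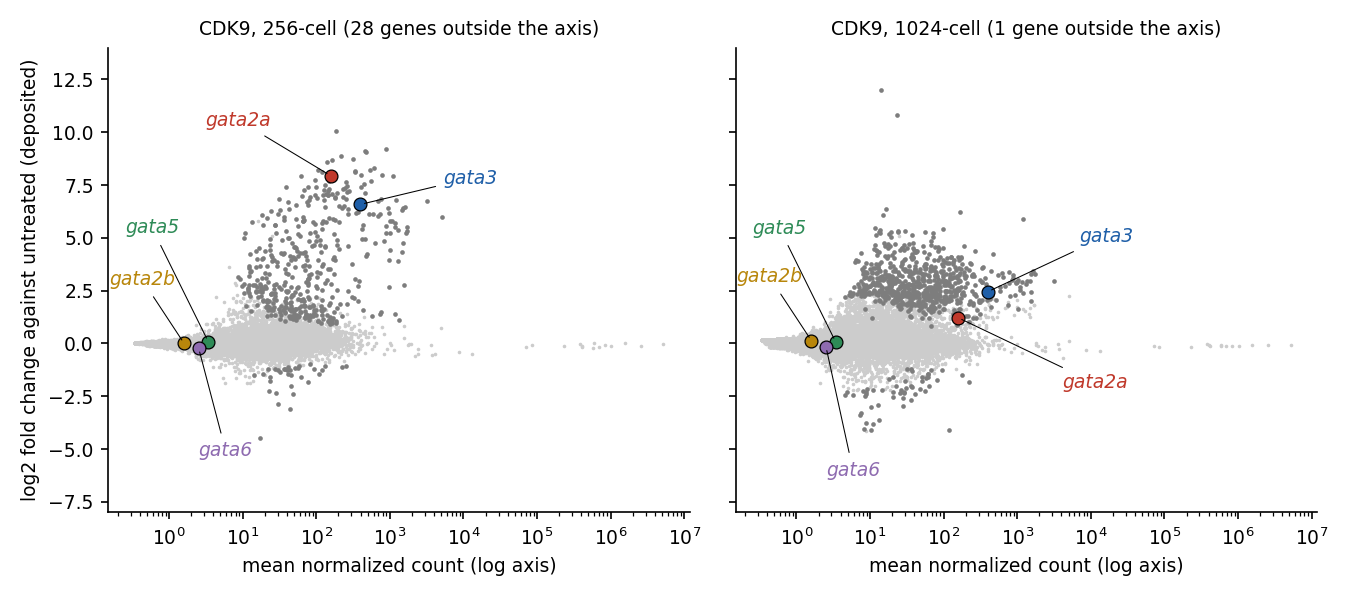
Mean normalized count over all libraries (log axis) against deposited log2 fold change under CDK9 at the 256-cell stage (left, 28 genes outside the axis) and the 1024-cell stage (right, 1 gene outside), with called genes in dark grey and others in light grey. The points of gata2a and gata3 lie high in the cloud of rises at the 256-cell stage while at the 1024-cell stage gata3 ranks 438 of the 690 rises and gata2a is not called, and gata5, gata6 and gata2b lie at the low-count end near 0.

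The CDK9 effect on both abundant genes was smaller in value at the later stage, and the difference itself did not pass a test. The 2 stages share no library, so the log2 fold changes could be subtracted. For gata2a the difference, 1024-cell minus 256-cell, was -6.72 (SE 2.46, interval -11.55 to -1.89, unadjusted p = 0.00636), and the difference of signed z values had an unadjusted p of 0.0696. The z values come from the p-values, so their difference compares strength of evidence and not size of effect. Adjusted over all 17135 genes its p was 0.872, and over the 1027 genes called at either stage it was 0.0599. For gata3 the difference was -4.13 (SE 2.26, interval -8.57 to 0.31, unadjusted p = 0.068), with adjusted p of 1 and 0.184 over the same sets and an unadjusted p of 0.223 from the z values. Over all genes, 20 had a lower effect at the later stage at an adjusted p under 0.05 (0.117%) and 8 a higher one (0.0467%). Over genes called at either stage, 19 had a lower effect (1.85%) and 65 a higher one (6.33%). Those genes were selected by calls in the same comparisons that are subtracted, gata2a by its call at the 256-cell stage alone. The p-values adjusted over them, and these 2 counts, are therefore a description and no sound test. The test over all genes is approximate, because the deposited fold changes are taken as shrunken and the amount of shrinkage in each table is not known. Of the 460 rises at the earlier stage and the 690 at the later one, 207 genes were shared, among them gata3, which is 45.0% of the earlier and 30.0% of the later rises.

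MiR430 injection was compared with the same untreated libraries as CDK9, so the 2 sets of values share their controls. At the 256-cell stage under MiR430, nearly all deposited log2 fold changes lay near 0, with a median SE of 0.02, so the p-values are given instead. The authors' deposited table gave gata2a an unadjusted p of 0.0444 and gata3 of 0.124, both with a positive sign and an adjusted p of 1. At an unadjusted p under 0.05, 1.46% of genes were higher in this comparison, and after adjustment 4 of 12373 genes rose (0.0323%) and 3 fell (0.0242%). The gene gata5 kept an adjusted p in this comparison alone, and it was 1.

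At the 1024-cell stage under MiR430, gata3 had a log2 fold change of 0.68 (SE 1.15) in the authors' deposited table, with an unadjusted p of 0.0169 and an adjusted p of 0.27. For gata2a the deposited values were 0.25 (SE 0.73), an unadjusted p of 0.0993 and an adjusted p of 0.609. Neither passed, and their intervals reach 2.94 and 1.68 at the upper end, which are no firm bounds where values are taken as shrunken. Of 10748 genes, 109 rose (1.01%) and 6 fell (0.0558%), and 6.01% of genes were higher at an unadjusted p under 0.05. The authors' deposited table had gata6 at -0.15 (unadjusted p = 0.139), gata5 at 0.053 (unadjusted p = 0.562) and gata2b at 0.03 (unadjusted p = 0.659) as log2 fold changes. For gata2a and gata3, the sign was positive in all 4 comparisons, and 3 of these 8 values passed the test, all under CDK9. Among all genes with an adjusted p, 58.4% and 55.9% were higher under CDK9 at the 256-cell and 1024-cell stage. Under MiR430 these shares were 48.2% and 55.2%. Both injections share untreated libraries at each stage, so the signs are not independent.

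The genes of the ventral side with which gata2a and gata3 are expressed were examined as a list of 20, of which 19 were measured. Under CDK9 at the 256-cell stage 12 of the 19 had an adjusted p, and of these 7 rose and 0 fell, where 5.04% of all genes with an adjusted p rose. The list was chosen with earlier results of these data known. The mean that decides on an adjusted p also includes the CDK9 libraries. At either stage its counts are therefore a description, and enrichment was not tested. The 19 genes had a median log2 fold change of 0.69 against 0 over all genes. The homeobox repressor gene vent had a log2 fold change of 8.17, with an SE of 1.44 and an adjusted p of 4.33e-07, per the authors' deposited table, beside 7.94 for gata2a. In the authors' deposited table the Krüppel-like factor gene klf17 was 6.76 higher on the log2 scale (SE 1.11), the forkhead gene foxi1, a regulator of the otic placode, 6.55 (SE 1.78), and the caudal-type homeobox gene cdx4 6.35 (SE 2.08). These 3 values lay within 1 SE of that of gata3, a wide margin at an SE of 1.6. The genes named were the called ones with the smallest adjusted p, so large values follow partly from the pick. Of the 19 genes, 12 were not called.

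By the 1024-cell stage 15 of the 19 ventral genes had an adjusted p, and 5 rose and 0 fell, where 5.89% of all genes rose. The median over the 19 was 1.44 against 0.05. On the log2 scale the Bmp-responsive gene id3 was 2.78 higher (SE 0.97, adjusted p = 0.00831), klf17 2.98 (SE 1.18), vent 2.89 (SE 1.17) and foxi1 2.67 (SE 1.34, adjusted p = 0.0252), all from the authors' deposited table. Again the genes named are called ones, and 14 of the 19 were not called at the later stage. With recentred statistics 6 and 4 of the list rose at the earlier and later stage. By the authors' own call rule the counts were 6 and 1.

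The endoderm and mesendoderm list, the setting in which gata5 and gata6 act, had all 18 members measured, 17 of them with an adjusted p. Under CDK9, 6 rose and 0 fell at each stage, where 5.04% and 5.89% of all genes with an adjusted p rose. This list too was chosen with earlier results known, and enrichment was not tested. On the log2 scale, at the 256-cell stage, the Nodal ligand genes ndr1 and ndr2 were 8.58 (SE 1.46) and 7.42 (SE 1.74) higher, the Nodal antagonist gene lft2 7.76 (SE 1.51) and the yolk syncytial regulator gene mxtx2 4.86 (SE 1.03) in the authors' deposited table. Later, at the 1024-cell stage, ndr2 was 4.51 (SE 1.40) higher, ndr1 3.13 (SE 0.96), lft2 3.23 (SE 1.05) and the Nodal cofactor gene foxh1 2.69 (SE 0.68) in the authors' deposited table. The list's medians were 0.55 and 1.11 at the 2 stages, against 0 and 0.05 over all genes, and 5 members rose at each stage with recentred statistics. The genes named are called ones, and 12 of the 18 were not called at each stage. The values of gata5 at the 2 stages were 0.078 and 0.071, and those of gata6 -0.21 and -0.15. With means of 3.42 and 2.52, neither had an adjusted p under CDK9. A change in them was not detectable, so these values are no contrast with the list.

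The partners of GATA proteins were followed as well. Of 23 listed cofactors, among them the FOG genes zfpm1, zfpm2a and zfpm2b, 17 were measured and 12 had an adjusted p. At the 256-cell stage 0 of these were called in the authors' DESeq2 table, with 1 at an unadjusted p under 0.05. The share of all genes with an adjusted p that rose there was 5.04%. At the 1024-cell stage the LIM-only gene lmo4a alone rose, with a log2 fold change of 2.78, an SE of 1.22 and an adjusted p of 0.0169 in the authors' deposited table. A single call among 12 genes is near the share over all genes, 5.89%, and is no result about the partners. The most abundant of them, the chromatin remodeller genes chd4b and chd4a, had log2 fold changes of -0.29 (SE 0.40) and -0.30 (SE 0.46) at the earlier stage in the authors' deposited table.

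Genes of blood and vessels, the tissues in which gata1a, gata2a and gata2b later act, were scarcely measured. Of 14 listed genes 6 had values, with a median mean of 1.52 normalized counts, and 2 had an adjusted p. At both stages 0 of the 6 were called under CDK9 in the authors' DESeq2 table, with 0 and 1 at an unadjusted p under 0.05. Among all genes with an adjusted p, 5.04% and 5.89% rose, so 0 calls among 2 such genes is no result about this list. Per the authors' deposited table the lateral mesoderm gene drl had a log2 fold change of 0.11 (SE 0.64) at the earlier and 1.79 (SE 1.50, adjusted p = 0.0932) at the later stage, and klf3 had 0.01 (SE 0.54) and -0.26 (SE 0.71).

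**Figure D5:**
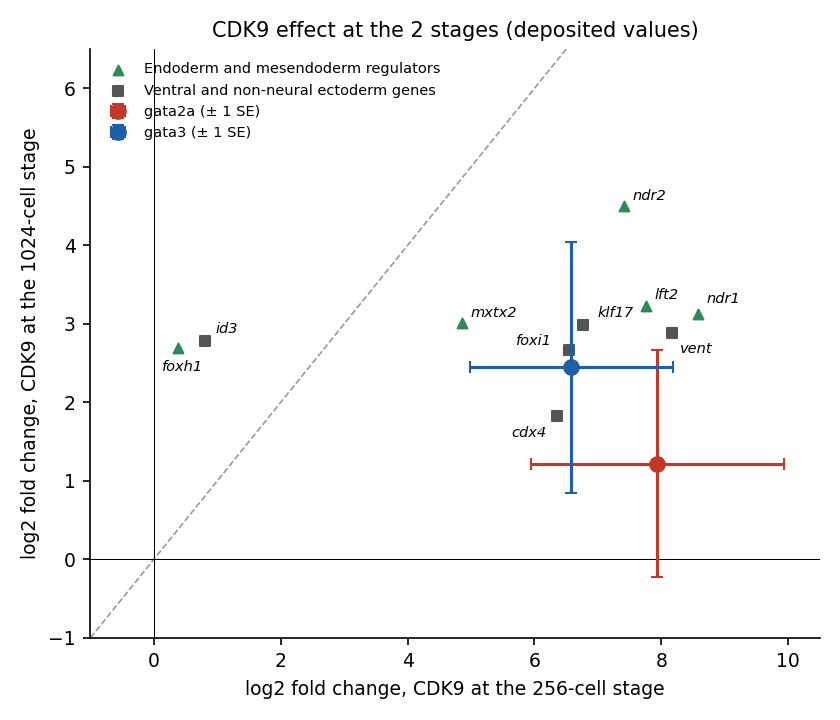
Deposited log2 fold change under CDK9 at the 256-cell stage (horizontal axis) and the 1024-cell stage (vertical axis) for gata2a and gata3 (circles, bars of 1 SE) and for the named genes of the ventral (squares) and endodermal (triangles) lists, with equal values on the dashed line. The genes gata2a (7.94 and 1.22) and gata3 (6.58 and 2.45) lie below the line, as do vent, klf17, foxi1, ndr1, ndr2, lft2 and mxtx2 (4.86 and 3.01), while foxh1 and id3 lie above it. From these 2 lists, foxh1 and id3 were named for the 1024-cell stage alone, and cdx4 and mxtx2 for the 256-cell stage alone. The side of the line thus partly follows from how genes were picked.

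Markers of the first specialised layers were followed beside these values. Of 8 listed enveloping layer markers 4 were measured, of which 2 had an adjusted p at the earlier and 4 at the later stage. Of these, 2 rose at the 256-cell stage, klf17 and the Grainyhead-like gene grhl3, at 9.19 (SE 1.87) in the authors' deposited table, and 1 rose at the 1024-cell stage, klf17. Of 4 yolk syncytial layer markers 2 were measured, and 1 rose at each stage, mxtx2. Over all genes with an adjusted p, 5.04% rose at the earlier and 5.89% at the later stage. The calls of klf17 and mxtx2 were already counted above, in the ventral and the endoderm and mesendoderm lists. With so few markers measured, these counts are no result about the layers. The keratin genes krt4, krt5 and krt92 gave no value here. The part of these layers in the values of gata2a and gata3 was not tested, and group-wise summed levels need libraries mapped to groups.

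Genes with a pattern most like that of each abundant member were sought by the distance between signed z values over the 4 comparisons, among named genes (no clone or accession names) whose mean lay within 2-fold. For gata2a, 948 genes were compared, with a median distance of 5.24. The nearest were the hairy-related gene her11 (distance 0.56), a dre-mir-430c-1 copy (0.60), whose near-identical copies may share reads, and gadd45ba (0.62). The comparisons of MiR430 injection enter this distance, and reads of injected MiR430 and of the embryo's own copies were not separated. The log2 fold changes of her11 under CDK9 were 7.22 and 1.21 at the 2 stages per the authors' deposited table, beside 7.94 and 1.22 for gata2a. For gata3, 154 genes were compared, with a median distance of 4.35. The nearest were the Fringe gene lfng (0.74), the hairy-related gene her5 (0.80) and the Wnt ligand gene wnt11f2 (0.83). The distance between gata2a and gata3 was 1.18, and among all 16996 genes with a p, 42 others were nearer to gata2a and 56 others nearer to gata3. The 4 comparisons share controls in pairs, so these distances describe the tables only. For gata5, gata6 and gata2b the z values lay between -1.48 and 0.58.

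The GATA genes are of middling to short length. The span of gata3 was 10001 bases and that of gata2a 18031. The median span was 6996 bases among the 460 rises at the 256-cell stage and 18296 among the 9124 genes tested. The gene gata3 has 5 merged exons and gata2a has 7, where the median was 4 among rises and 10 among genes tested. The scarce members gata5 (11301 bases), gata6 (10679) and gata2b (9786) lie close to gata3 in span.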

How the data were processed

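RNA that held s4UTP was captured by biotin on beads, treated with iodoacetamide and made into stranded libraries with no polyA step, per the labels' protocols. The tools were Trimmomatic, HISAT, SAMtools, Picard, featureCounts and DESeq2, and the build was GRCz11, per the submitters' processing notes. The sources used here do not give versions, strand settings or the treatment of reads that match several genes.

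The authors deposited a count table, of which symbols, coordinates, strand and exon length were used. Its 18 count columns match no sample label and were not used, so no count model was fitted and depth per library was not used here. The tests are those of the 4 comparisons deposited by the authors. Per the file headers, the mean normalized count is a base mean, a signal over all libraries. Their log2 fold changes and SE, deposited per comparison, are taken as shrunken because small p-values stand beside values near 0. The p-values and adjusted p-values are the authors' deposited ones. A gene was called at an adjusted p under 0.05. Levels were divided by exon length in kb. Intervals are 1.96 SE to each side. Replicates are biological, per the labels' design.

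The stage difference was the difference of log2 fold changes over the root of the summed squared SE (two-sided normal p, Benjamini-Hochberg). Its arithmetic was checked on simulated normal values, which does not check the effect of shrinkage. Signed z values came from the deposited p. Members and lists were chosen with earlier results of these data known. Genes named were the members, cdk9, up to 4 called genes per list and CDK9 comparison by adjusted p (the 2 most abundant where none passed), the 3 nearest in pattern, and nearest neighbours in the annotation. Sequences were not used. Alternatives were no filter, a mean of at least 50, recentred statistics and the authors' call rule. Python 3.11.15, numpy 2.4.6, pandas 2.3.3, scipy 1.17.1 and matplotlib 3.10.9 were used.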

Additional observations from a re-analysis of the deposited data

How the results depend on the processing

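Under CDK9 at the 256-cell stage gata2a and gata3 kept their calls under the 4 alternatives tried, and at the 1024-cell stage gata3 lost its call under 3 of them, as given above. Of 42 values of single genes under alternatives, 39 stayed on the same side of the threshold and 3 became weaker, and the cause was not tested. Most of the 42 belong to comparisons in which the gene was not called to begin with. The count of 39 therefore says little about how firm the calls are, and the 3 weaker values are all from gata3 at the 1024-cell stage. By the authors' call rule, a stricter rule by construction, 232, 322 and 21 genes were called for CDK9 at the 256-cell stage, CDK9 at the 1024-cell stage and MiR430 at the 1024-cell stage, against 494, 744 and 115. With a mean of at least 50, where fewer genes are tested, CDK9 at the 1024-cell stage gave 435 calls. The stage difference gave 28 calls over all genes and 84 over genes called at either stage (a set selected on the same comparisons). With z values, which compare strength of evidence and not size of effect, it gave 7. Neither gata2a nor gata3 passed in any of these. The ratio of gata3 to gata2a was 2.68 per kb and 2.54 without division by length, and the order of the 5 members was the same. Alternatives that need libraries mapped to groups (edgeR, DESeq2 on counts, leaving out a replicate) were not run. No paired analysis was possible because the count columns carry no replicate number that matches the labels. Means under 4 limit gata5, gata6 and gata2b.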

Other observations

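The nearest measured genes on either side of the abundant pair were not called in any of the 4 comparisons. On chromosome 4, taf3, which codes for a subunit of the general transcription factor TFIID, lies 19.7 kb from gata3, on the same strand. In the authors' deposited table its log2 fold changes under CDK9 were 0.47 (SE 0.61, adjusted p = 0.389) at the earlier stage and 0.17 (SE 0.49, adjusted p = 0.772) at the later one. The nearest measured gene on the other side, celf2, lies 1023 kb away. With a mean of 1.40 it had no adjusted p in any of the 4 comparisons, so it could not be called. On chromosome 11, rpn1, a gene of the oligosaccharyltransferase complex, lies 26.9 kb from gata2a, with log2 fold changes in the authors' deposited table of 0.06 (SE 0.33, adjusted p = 0.927) and -0.11 (SE 0.28, adjusted p = 0.808) under CDK9. On its other side dnajc16l, 234 kb away, was at 0.74 (SE 0.53, adjusted p = 0.171) there at the 256-cell stage, again in the authors' deposited table.

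The gene gata2b overlaps CR450814.1 on the opposite strand, with 391 bases of exon in common. That gene had a mean of 1.54, beside 1.60 for gata2b. Reads over those 391 bases can be assigned only by strand. The libraries were stranded, and the sources used here do not give the strand setting of the counting. Beside gata1a, hcfc1a (17.6 kb away, mean 237) was at -0.81 (SE 0.36, adjusted p = 0.0663) as a log2 fold change under CDK9 at the 256-cell stage, per the authors' deposited table.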
